A study of Mus musculus with 6 samples.

Results

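Late cortex hair keratins are the keratins that fill the cells of the hair shaft cortex once those cells have left the dividing matrix of the bulb. They were taken as every probe set whose gene symbol in the platform annotation was Krt31, Krt33a, Krt33b, Krt34, Krt36, Krt81 or Krt86. This gave 7 probe sets for 7 genes, out of 45101 probe sets in the table, and all 7 were among the 27022 kept by the filter on dim probe sets. No probe set with several symbols included a member. The members were chosen by name, with earlier results of these data known.

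Expression was measured on 6 one-colour mouse oligonucleotide arrays that read total RNA of the hair bulb on postnatal day 9, while the first coat was growing. Signals are in MAS5 units, with a median of 220.0 to 263 on the arrays. The 2 emN1 arrays came from skin where Notch1 was deleted in the embryo, so that functional Notch1 was absent. The 2 anN1 arrays came from skin deleted later, in anagen (the growth phase of the follicle), where functional Notch1 remained, and the 2 wild-type arrays had no stated deletion. The study took anN1 as well as wild-type for controls. The sources used here do not give the driver of the deletion, the strain, the sex or the number of animals per array. Array set 1 held emN1 replicate 1 and anN1 replicate 1, and array set 2 the other 4 arrays.

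The hair shaft is built from keratin filaments, each a polymer in which an acidic type I keratin pairs with a basic type II keratin. Among the members Krt31, Krt33a, Krt33b, Krt34 and Krt36 are type I and Krt81 and Krt86 are type II. Hair keratins switch on in sequence as matrix cells move up the bulb: Krt35 and Krt85 come first, and most of the members follow in the cortex above. In a bulk sample, more RNA of a keratin per cell and more cells that make it cannot be told apart. Members of one type are close relatives, and a probe set can bind RNA of a relative, so each value is that of its probe set; this was not tested.

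Promoter sequences are shown because several members moved together. The sources used here gave none for Krt33a, Krt81 or Krt86. Krt33b and Krt34 rose in emN1 against anN1, while Krt31 and Krt36, also shown, did not pass. The sequences come from RefSeq on the build GRCm38.p6, which gave 4 of the members. Each has 250 bases before and 50 after the start of the gene, printed 5′ to 3′ on the minus strand that the genes lie on. Capitals mark CTTTGAA, the core bound by the Wnt-pathway factors LEF1 and TCF, TTTATGNG, a stretch chosen after these sequences were read, and TATAA, the TATA box on the printed strand.
Krt31, chr11:100050502-100050801, minus strand: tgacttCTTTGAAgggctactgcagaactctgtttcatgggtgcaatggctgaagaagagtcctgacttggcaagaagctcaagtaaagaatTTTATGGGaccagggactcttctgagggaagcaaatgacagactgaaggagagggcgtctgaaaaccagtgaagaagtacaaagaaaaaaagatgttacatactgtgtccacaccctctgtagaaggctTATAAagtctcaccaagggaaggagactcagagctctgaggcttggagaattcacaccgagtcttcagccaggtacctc
Krt33b, chr11:100029819-100030118, minus strand: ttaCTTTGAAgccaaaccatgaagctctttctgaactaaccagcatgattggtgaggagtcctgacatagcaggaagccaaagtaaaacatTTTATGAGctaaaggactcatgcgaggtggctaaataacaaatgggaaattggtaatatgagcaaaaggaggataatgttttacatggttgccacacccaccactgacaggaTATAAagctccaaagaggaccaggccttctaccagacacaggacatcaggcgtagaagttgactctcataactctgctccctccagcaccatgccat
Krt34, chr11:100041505-100041804, minus strand: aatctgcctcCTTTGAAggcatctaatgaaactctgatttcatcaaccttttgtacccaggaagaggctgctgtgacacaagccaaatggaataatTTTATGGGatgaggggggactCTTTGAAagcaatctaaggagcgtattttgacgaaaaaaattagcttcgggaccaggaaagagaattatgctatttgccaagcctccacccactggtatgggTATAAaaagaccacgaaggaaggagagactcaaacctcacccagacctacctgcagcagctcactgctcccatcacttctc
Krt36, chr11:100105577-100105876, minus strand: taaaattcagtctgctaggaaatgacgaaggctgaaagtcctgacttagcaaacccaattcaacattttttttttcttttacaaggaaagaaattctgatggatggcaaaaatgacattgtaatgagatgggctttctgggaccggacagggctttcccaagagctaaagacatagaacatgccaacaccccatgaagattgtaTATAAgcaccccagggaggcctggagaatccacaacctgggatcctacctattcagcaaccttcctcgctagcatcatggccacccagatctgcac

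CTTTGAA began 244 bases before the start in Krt31, 247 in Krt33b and 240 in Krt34, which had another match 133 bases before the start. Krt36 had none in this window. On either strand CTTTGAA was found in 5.14% of the 32851 promoters of the same length, TTTATGNG in 2.79% and TATAA in 24.9% (17.5% on the printed strand alone). TTTATGNG lay 158, 159 and 154 bases before the start in Krt31, Krt33b and Krt34 and was not matched in Krt36, while TATAA was matched in all 4. GTGGGAA, the sequence bound by RBPJ, the DNA-binding partner of cleaved Notch, was matched on neither strand of the 4 windows, against 6.38% of all promoters. So low a share leaves most sets of 4 windows without a match, so the absence does not set these genes apart. Of the 5 other hair keratin promoters in the table, Krt32 had CTTTGAA 247 bases and TTTATGNG 158 bases before the start, Krt39 had both at other places, and Krt82 and Krt84 had TTTATGNG alone of these. Krt33b, Krt34, Krt31 and Krt32 are close relatives that stand next to one another in the genome, with both stretches at nearly the same places. Their windows are therefore not independent, and the shares over all promoters cannot show enrichment in them. The matches describe letters in these windows and do not show binding. Apart from a TATAA match on the other strand of Krt31 that overlaps the printed one, no matches overlapped.

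Before the comparisons, 3 features of the arrays bear on them. Notch1, the deleted receptor, gave 6498 and 6292 signal units for emN1, 15077 and 12527 for anN1, and 23750 and 34070 for wild-type. The anN1 arrays thus lay between the others, though anN1 minus wild-type did not pass (-1.13 on the log2 scale, SE 0.20, limma adjusted p = 0.289). Whether the keratin signals follow that of Notch1 was not tested. Xist, an RNA made from the inactive X chromosome of females, gave 18376 and 12671 in wild-type and 183 to 390 in emN1 and anN1, and the Y-linked Eif2s3y gave 32.2 and 5.35 in wild-type and 10723 to 15890 in the other 4 arrays. Sex, as these genes read it, therefore cannot be told apart from group in any comparison with wild-type, while emN1 and anN1 were alike in it. The ratio of 3′ to 5′ beta-actin signal, which rises as RNA or its copies are shortened, was 4.59 and 5.64 in array set 1 and 2.39 to 2.71 in array set 2; values within each set are given below.

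The central comparison set emN1 against the 4 control arrays. Of the 7 members 4 rose, none fell and 3 did not pass, where 2.41% of all 27022 kept probe sets were called higher in emN1 and 1.37% lower (3.77% in either direction). The 4 were Krt86 (log2 difference 6.26, SE 0.77, limma adjusted p = 0.00519), Krt34 (5.87, SE 0.87, limma adjusted p = 0.0102), Krt33b (4.95, SE 0.89, limma adjusted p = 0.0216) and Krt81 (4.59, SE 0.49, limma adjusted p = 0.00333). Krt33a stood at 1.94 (SE 0.75, limma adjusted p = 0.240), Krt31 at 1.03 (SE 0.62, limma adjusted p = 0.473) and Krt36 at 0.75. The median log2 difference of the members was 4.59, against -0.01 over all kept probe sets, and the emN1 signals lay above all 4 control signals for 6 of the 7, which was so for 9.99% of kept probe sets. Without either emN1 array, which leaves 1 emN1 array, calls were lost in the members and over the whole array. The count of 4 fell to 2 without anN1 replicate 1, where the calls over all kept probe sets fell from 1020 to 190. It fell to 0 without the intensity trend in the variance, as over all kept probe sets. All 7 differences stayed above 0 each time. Because the controls are of 2 kinds that differed in several members, each is taken separately below; the comparisons share arrays and are not independent of one another.

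**Figure D1:**
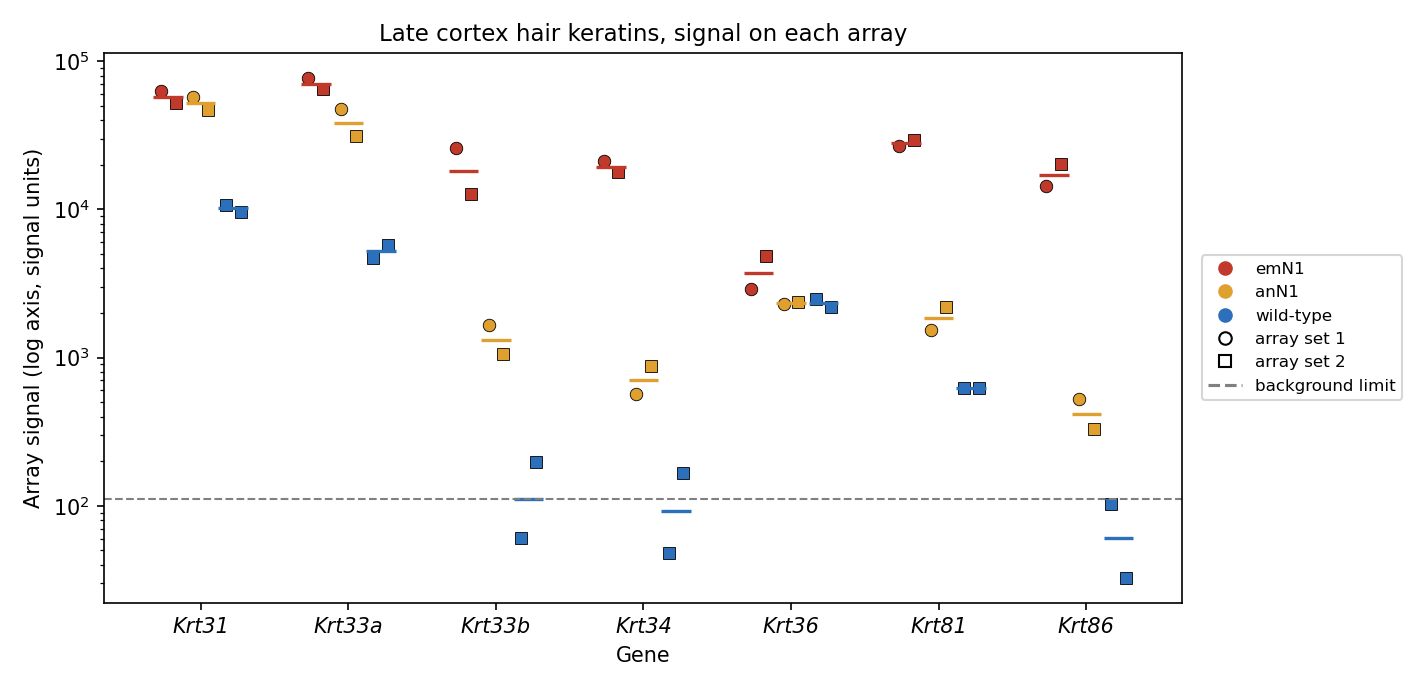
Signal of each late cortex keratin on each array (log axis, signal units), with circles for array set 1, squares for array set 2, bars for group means on the log scale, and a dashed line at 112, the 95th percentile of bacterial control probe sets. Krt33b, Krt34, Krt81 and Krt86 stand far higher in emN1 than in either control, Krt31 and Krt33a are above wild-type in both emN1 and anN1, and Krt36 lies close together in the 4 controls.

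Among the type II members, Krt81 (probe set 1427290_at), a keratin of the cortex, gave 26606 and 29244 in emN1, 1529 and 2200 in anN1, and 624 and 619 in wild-type. No 2 groups overlapped, and the wild-type arrays were nearly equal. Krt81 rose in emN1 against anN1 by 3.91 log2 units (SE 0.16, n = 2 and 2, limma adjusted p = 4.06e-04), which is 15.1-fold, with a 95% confidence interval from 3.54 to 4.29. By unadjusted p it ranked 2 of 27022 in that comparison.

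Krt86 (1427365_at), the other type II member, gave 14262 and 20088 in emN1, 525 and 327 in anN1, and 103 and 32.7 in wild-type. Both wild-type signals lay under 112, which was taken as the limit of background, so wild-type has only a bound. Krt86 rose by 5.29 log2 units against anN1 (SE 0.46, n = 2 and 2, limma adjusted p = 0.00440), or 39.1-fold, more than any other member in that comparison. The bounds against wild-type come from group means without the array set term, with wild-type signals raised to the limit. By them Krt86 was at least 131-fold higher in emN1 and at least 3.34-fold higher in anN1. The fitted differences were 7.72 in emN1 (limma adjusted p = 0.00117) and 2.43 in anN1 (limma adjusted p = 0.540).

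Krt34 (1418742_at), a type I keratin of the cortex, gave 21107 and 17834 in emN1, 565 and 875 in anN1, and 48.2 and 165 in wild-type, of which the first was under the limit of background. It rose by 4.75 log2 units against anN1 (SE 0.47, n = 2 and 2, limma adjusted p = 0.00688), or 26.9-fold. The emN1 signals were far above those of anN1, and the anN1 signals were all above those of wild-type without passing the test.

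Krt33b (1427179_at), also type I, gave 26066 and 12683 in emN1, 1653 and 1052 in anN1, and 60.4 and 197 in wild-type, of which the first was under the limit. It rose by 3.77 log2 units against anN1 (SE 0.43, n = 2 and 2, limma adjusted p = 0.0110), or 13.6-fold. Its emN1 replicates differed more from each other than those of any other member, with an SD of 0.73 on the log2 scale, and still did not overlap anN1.

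Krt31 (1421589_at), a main type I keratin of the cortex, followed another pattern. It gave 63136 and 52243 in emN1, 57068 and 46990 in anN1, and 10755 and 9626 in wild-type. Signals of emN1 and anN1 overlapped and lay well above wild-type, anN1 by 4.62-fold and emN1 by 5.12-fold. The difference between emN1 and anN1 was 0.15 log2 units (SE 0.10, n = 2 and 2, limma adjusted p = 0.603), with a 95% confidence interval from -0.08 to 0.38. That interval lies wholly under those of Krt33a (0.55 to 1.20), Krt33b (2.75 to 4.78), Krt34 (3.66 to 5.85), Krt81 and Krt86 (4.22 to 6.36).

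Krt33a (1449387_at), type I, came between these patterns. It gave 76982 and 64642 in emN1, 47315 and 31220 in anN1, and 4711 and 5788 in wild-type. Krt33a rose 1.84-fold in emN1 against anN1 (log2 0.88, SE 0.14, n = 2 and 2, limma adjusted p = 0.0267), while anN1 was already 6.33-fold above wild-type. The 3 groups did not overlap.

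Krt36 (1427751_a_at), a type I keratin also known from the papillae of the tongue, was the member that moved least against wild-type. It gave 2878 and 4857 in emN1, 2306 and 2363 in anN1, and 2499 and 2185 in wild-type. All 4 controls lay within a narrow range, and anN1 and wild-type overlapped. Both emN1 signals were above every control, but Krt36 passed in none of the comparisons: the difference was 0.75 against all controls (SE 0.18, limma adjusted p = 0.0642), 0.68 against anN1 (95% confidence interval 0.19 to 1.16, limma adjusted p = 0.202) and 0.87 against wild-type (limma adjusted p = 0.136).

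Against anN1 alone, then, 5 of the 7 members rose in emN1 and 2, Krt31 and Krt36, did not pass, where 1.35% of kept probe sets were called higher and 0.662% lower (2.02% in all). The median difference was 3.77 over the members and -0.02 over all kept probe sets. The emN1 signals lay above both anN1 signals for 6 of the 7, which was so for 15.4% of all kept probe sets. Without any one of the emN1 or anN1 arrays, an arm of 1 array is assumed to vary like the others. Calls were then lost over the whole array and not in the members alone. The difference stayed at 3.57 or more for Krt33b, Krt34, Krt81 and Krt86. Without the array set term the count was 3, where 42 of all kept probe sets passed instead of 545. Without the intensity trend it was 0, as over all kept probe sets.

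Within array set 1 the emN1 minus anN1 difference was 0.15 for Krt31, 0.70 for Krt33a, 3.96 for Krt33b, 5.18 for Krt34, 0.32 for Krt36, 4.11 for Krt81 and 4.72 for Krt86, on the log2 scale. Within array set 2 it was 0.15, 1.05, 3.57, 4.32, 1.03, 3.72 and 5.86 in the same order. Each member was above 0 in both sets. Over all kept probe sets 47.1% of the fitted emN1 minus anN1 differences were above 0. Krt33b, Krt34, Krt81 and Krt86 lay at 3.57 or more in both sets and the other 3 at 1.05 or less. The members share the same arrays and the fitted differences average these same pairs, so the sets are no separate support for that grouping. The change in size from one set to the other passed the test for 0 of the 7 (limma, 0 at an unadjusted p under 0.05; over all probe sets 0 passed and 1067 had an unadjusted p under 0.05). It ran from -0.86 for Krt34 (95% confidence interval -3.66 to 1.95) to 1.15 for Krt86 (-1.40 to 3.69), so this test, with 1 residual degree of freedom, leaves room for large differences between the sets.

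**Figure D2:**
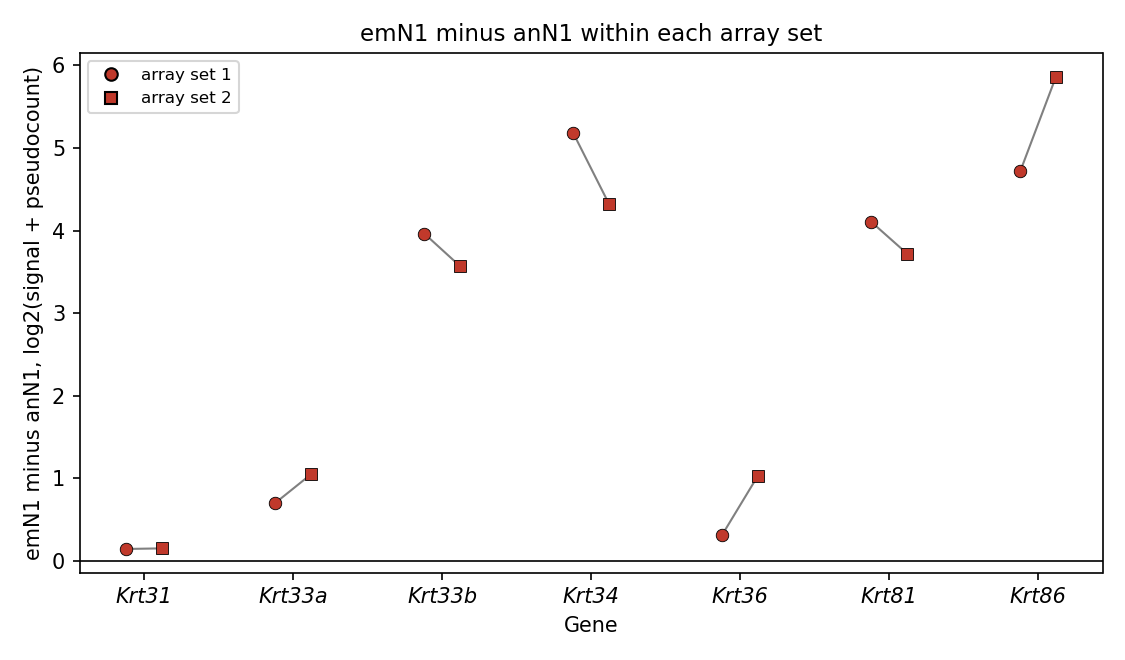
Difference between emN1 and anN1 in log2(signal + pseudocount) for each late cortex keratin, from the pair of arrays in set 1 (circles) and the pair in set 2 (squares), joined by a line. Krt33b, Krt34, Krt81 and Krt86 lie between 3.57 and 5.86 in both sets, and Krt31 lies at 0.15 in both.

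Between the 2 kinds of control, 3 of the 7 members rose in anN1 and 4 did not pass, where 0.0518% of kept probe sets were called higher in anN1 and 0.0222% lower (0.074% in all). Krt31 differed by 2.21 (SE 0.11, limma adjusted p = 0.00126), Krt33a by 2.66 (SE 0.15, limma adjusted p = 0.00145) and Krt81 by 1.70 (SE 0.18, limma adjusted p = 0.0327). Krt33b at 2.95 (SE 0.48, limma adjusted p = 0.244), Krt34 at 2.81 (SE 0.52, limma adjusted p = 0.361) and Krt86 at 2.43 (SE 0.51) had fitted differences with larger errors and at least 1 wild-type signal under the limit of background. With such signals raised to it, group means without the array set term put Krt33b 8.02-fold and Krt34 4.68-fold higher in anN1. For Krt33b the fitted difference was 7.72-fold, so the 8.02-fold is no lower bound. Krt36 was at 0.20 (SE 0.23). The anN1 signals lay above both wild-type signals for all members except Krt36, which was so for 16.5% of all kept probe sets.

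Only 20 probe sets were called between anN1 and wild-type, 14 of them higher in anN1, and the 3 members were among these 14. Others of the 14, named after their values were seen, were the hair keratin Krt83, the keratin-associated protein genes Krtap11-1 and Krtap17-1, the receptor gene Gprc5d, the epithelial genes Crct1, Mt4 and Csta1, and the Y-linked Eif2s3y, Uty and Kdm5d. The 6 lower in anN1 were 3 probe sets of Xist, 2 of Selenbp1 and 1 of Tmem87a. Within array set 2, which the design text gives as a later set with anN1 replicate 2 and both wild-type arrays, the difference was 2.21 for Krt31, 2.58 for Krt33a, 3.05 for Krt33b, 3.02 for Krt34, 1.80 for Krt81 and 2.14 for Krt86. Krt36 was at 0.02 there and the other 6 at 1.80 or more. Without the intensity trend the count of 3 called was 0, as over all kept probe sets. With arrays centred on their median it was 6, where the calls over all kept probe sets rose from 20 to 42. Leaving out 1 array leaves a group of 1. In the members and over the whole array, calls were then lost without an emN1 or anN1 array and gained without a wild-type array. The differences of Krt31, Krt33a and Krt81 stayed at 1.41 or more.

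Against wild-type, 6 of the 7 members rose in emN1 and Krt36 did not pass, where 1.53% of kept probe sets were called higher and 0.629% lower (2.16% in all). The emN1 signals lay above both wild-type signals for all 7, which was so for 19.7% of kept probe sets. The difference was 2.36 for Krt31 (SE 0.11), 3.54 for Krt33a (SE 0.15) and 5.61 for Krt81 (SE 0.18), all with wild-type signals above background. Krt33b, Krt34 and Krt86 had wild-type signals under the limit of background, so their fitted differences have no order. With such signals raised to the limit, group means without the array set term put Krt33b 109-fold, Krt34 126-fold and Krt86 at least 131-fold higher in emN1. For Krt33b the fitted difference was 105-fold, so the 109-fold is no lower bound. The limma adjusted p-values of the 6 lay between 7.87e-05 and 0.00153. Without any one of the emN1 or anN1 arrays, which leaves a group of 1 array, calls were lost in the members and over the whole array. With any 1 array left out, the lowest of these 6 differences was 2.28, for Krt31. Without the intensity trend the count of 6 was 0, as over all kept probe sets. Over all members the order was emN1, anN1, wild-type without overlap for Krt33a, Krt33b, Krt34, Krt81 and Krt86, a pattern shown by 2.41% of all kept probe sets; in Krt31 the first pair overlapped and in Krt36 the second.

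**Figure D3:**
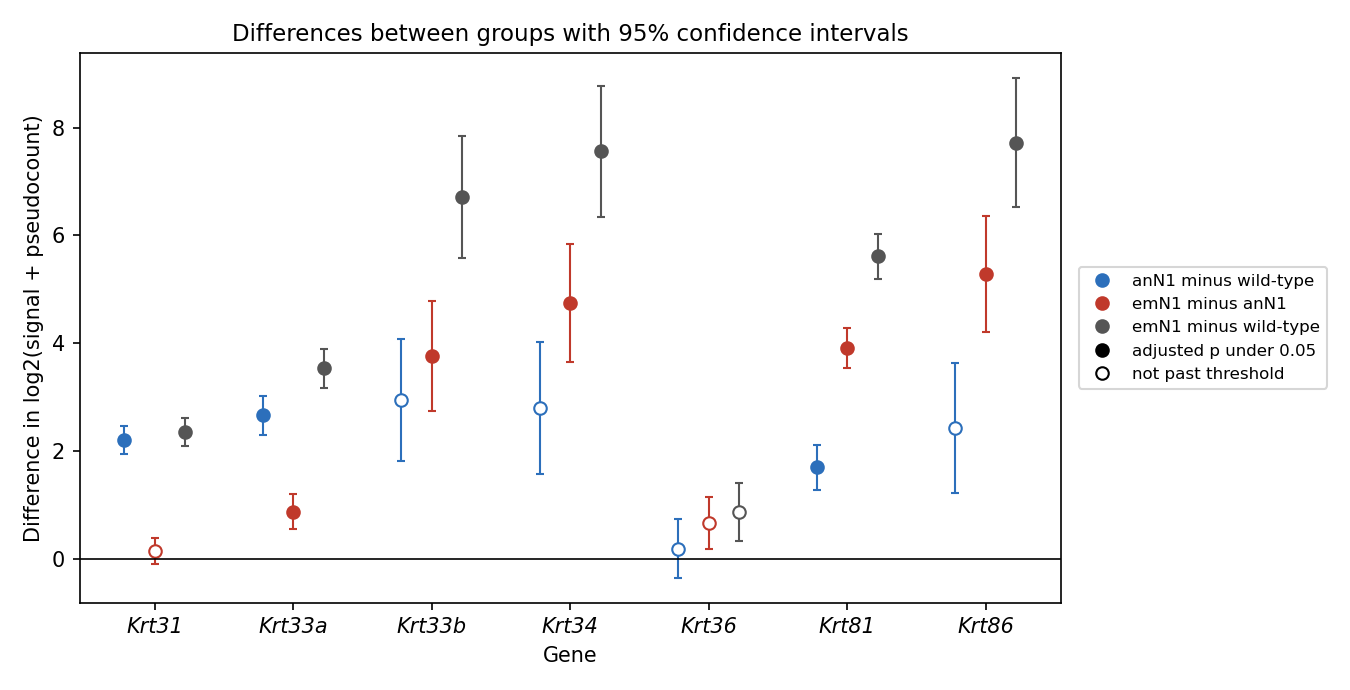
Differences in log2(signal + pseudocount) for each late cortex keratin between anN1 and wild-type (blue), emN1 and anN1 (red) and emN1 and wild-type (grey), with 95% confidence intervals from limma; filled points passed at an adjusted p under 0.05 and open points did not. The red points spread from 0.15 to 5.29, and the blue points, apart from Krt36, lie between 1.70 and 2.95; for Krt33b, Krt34 and Krt86 the blue and grey points rest on wild-type signals under the limit of background.

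By gene order on chromosome 11, Krt33a, Krt33b, Krt34 and Krt31 stand next to one another, followed by Krt32, Krt35 and Krt36. Along these neighbours the emN1 minus anN1 difference was 0.88, 3.77, 4.75 and 0.15 for the first 4, then 0.97, -0.43 and 0.68, so that adjacent genes differed widely. Krt81 and Krt86 are neighbours on chromosome 15, followed by Krt83.

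Of the 9 other hair keratins listed, 5 were measured. Krt83, a type II keratin next to Krt86, gave 31133 and 30257 in emN1, 16411 and 10807 in anN1, and 2357 and 2637 in wild-type. It rose by 1.20 against anN1 (SE 0.16, limma adjusted p = 0.0149) and by 2.25 in anN1 against wild-type (SE 0.17, limma adjusted p = 0.00716), an order like that of Krt33a; each call was lost without any one of the emN1 or anN1 arrays. The cuticle keratins Krt32 and Krt82 differed by 0.97 (SE 0.22, limma adjusted p = 0.0872) and 0.95 (SE 0.22, limma adjusted p = 0.0948) against anN1, passed only against wild-type (2.56 and 1.78), and did not overlap between any groups. Both wild-type calls were lost without any one of the emN1 or anN1 arrays, and both keratins passed against anN1 without either wild-type array.

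Krt35, an early keratin of the matrix and precortex, went the other way without passing. It gave 40609 and 45247 in emN1, 72332 and 46226 in anN1, and 65641 and 60195 in wild-type, a difference of -0.53 against the controls (SE 0.16, limma adjusted p = 0.131). Krt84, a keratin known mainly from the tongue, gave 110 to 432 on all arrays and did not pass in any comparison. Against all controls 0 of these 5 were called, 5 at an unadjusted p under 0.05, and their median was 1.28 beside 4.59 for the members; whether the lists differ was not tested. The 0 became 3 without anN1 replicate 2 (Krt32 and Krt82 higher, Krt35 lower) and 2 without wild-type replicate 2 (Krt32 and Krt82), and Krt82 also passed with a pseudocount of 100, quantile normalization, median centring or signals raised to the background limit.

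**Figure D4:**
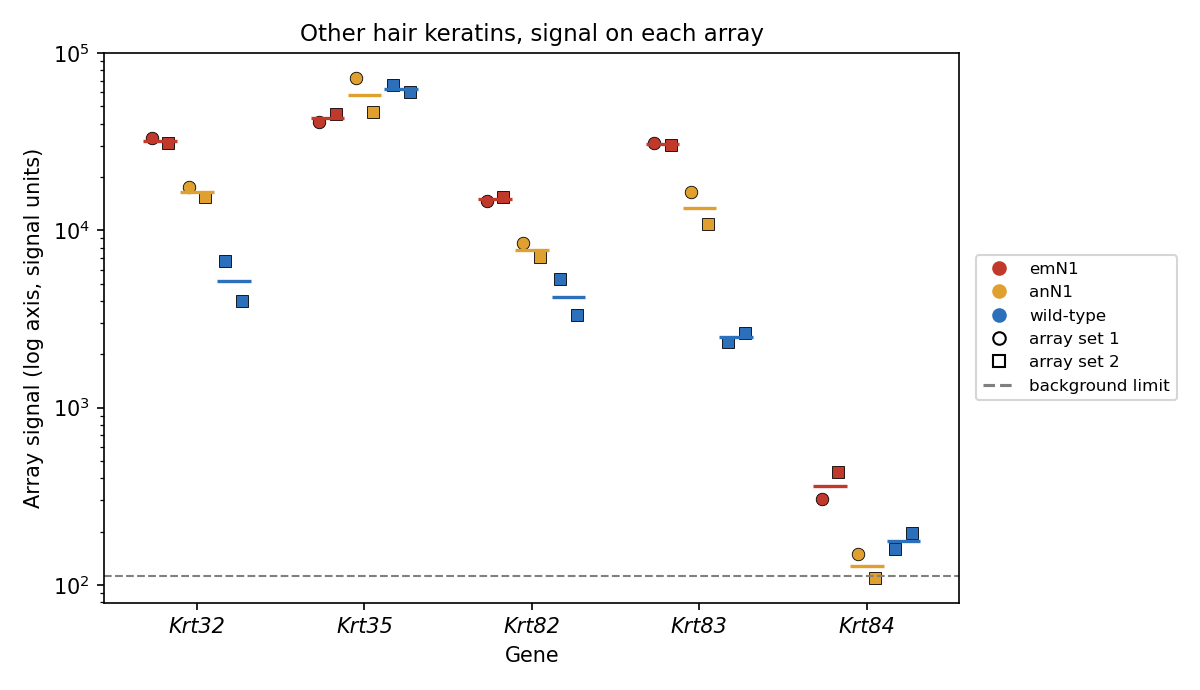
Signal of the 5 other measured hair keratins on each array (log axis, signal units), with symbols, bars and background limit as for the late cortex keratins. Krt32, Krt82 and Krt83 are highest in emN1 and lowest in wild-type, Krt35 is not, and Krt84 lies near background.

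Of 18 measured regulators of hair shaft differentiation, 1 rose in emN1 against the controls, none fell and 17 did not pass, a share near the 3.77% called over all kept probe sets. At an unadjusted p under 0.05 there were 5 of 18, beside 4477 of 27022 over all. In limma 0 of 18 passed against anN1, against wild-type or between the controls, with 4, 7 and 2 at an unadjusted p under 0.05. Over all kept probe sets 545, 584 and 20 of 27022 passed in the same order, and 3633, 3559 and 984 had an unadjusted p under 0.05. The median against the controls was -0.03. The gene that rose was Vdr, the vitamin D receptor, which is needed for hair cycling (log2 0.71, SE 0.14, limma adjusted p = 0.0305); its call was lost without either emN1 array, anN1 replicate 1 or wild-type replicate 1, without the array set term, with the block by label number, with arrays centred on their median, without the intensity trend and in array set 2 alone. Hoxc13, a homeobox factor that acts on hair keratin genes, gave 4426 and 7217 in emN1, 5262 and 5942 in anN1, and 6466 and 5475 in wild-type, and these overlapped (log2 0.07, SE 0.15). Lef1, whose core motif stands in 3 of the promoters above, differed by -0.48 (SE 0.14, limma adjusted p = 0.119). Both are named for the motif and for their known role, after their values were seen.

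The genes outside the members whose pattern over the 6 arrays was most like the members' mean pattern were Fam107a (Pearson r 0.998), Ube2d3 (0.998), Sprr1b (0.996), Elovl3 (0.996) and Dnase1l2 (0.995). Fam107a gave 995 and 1147 in emN1, 409 and 375 in anN1, and 128 on both wild-type arrays. Elovl3, a fatty acid elongase, gave 4042 and 3969, 901 and 1000, and 314 and 327. In Ube2d3, which encodes a ubiquitin-conjugating enzyme, the pattern was the same but small, from 33986 to 47061 over all arrays. The members' own r ran from 0.756 for Krt36 and 0.860 for Krt31 to 0.9798 for Krt86. With 6 arrays that share 3 groups, 40 of 27022 probe sets had an r over 0.98. By ranks 1 of the 5 genes had the highest rho, at which 123 probe sets were tied.

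Markers of other cells of the bulb moved with the emN1 result. Against the controls 29 of the 62 kept genes of 12 cell type lists passed, beside 3.77% of all kept probe sets (2.41% higher and 1.37% lower). None of these calls held without the intensity trend, where 0 of all kept probe sets passed. Most calls over the whole array were also lost without either emN1 array. Melanocyte genes fell (7 of 8, among them Dct by 1.27 and Tyr by 1.57 on the log2 scale), with a summed signal of 95201 to 112949 in emN1, 262983 to 308138 in anN1 and 211260 to 229541 in wild-type. Of the immune cell genes 4 of 7 rose (Csf1r by 2.72; 6218 to 7430, 1266 to 1688 and 1534 to 1607 in the same order), as did 4 of 7 fibroblast genes (Col3a1 by 0.87; 95325 to 113596, 62344 to 67669 and 61017 to 81081). In the outer root sheath and basal list 4 of 8, Krt5, Krt14, Krt15 and Col17a1, rose and Krt17 fell (143980 to 161514, 96522 to 111770 and 102885 to 107053), and in the dermal papilla list 3 of 5 fell (19426 to 20863, 20287 to 26306 and 24475 to 25666). In the inner root sheath list 2 of 9, Krt26 and Krt72, rose (550511 to 593221, 491878 to 499745 and 466981 to 474354). In the matrix and precortex list 1 of 7, Shh, rose (log2 0.41; 93985 to 107606, 99129 to 125450 and 119190 to 125281), and 5 of the 8 genes listed are also among the regulators; markers of the bulb were thus present on all arrays. In the companion layer Krt6a rose and Krt75 fell of 2 kept (17605 to 24791, 32546 to 38978 and 30919 to 37043), in the medulla Padi3 rose and Krt75 fell of 4 (56879 to 66171, 68340 to 72851 and 61184 to 66662), and 0 of 3 suprabasal epidermis, 0 of 2 skeletal muscle and 0 of 2 adipocyte genes passed. The part of these in the keratin result was not tested. Between anN1 and wild-type, where 3 members rose, 0 of the 62 kept genes of these 12 cell type lists passed in limma, as few as the 0.074% called over all probe sets would leave among so few genes. At an unadjusted p under 0.05 there were 12 of 62, beside 984 of 27022 over all, with 5 of 8 melanocyte, 3 of 4 medulla and 2 of 3 suprabasal epidermis genes among them, and their part in the members' difference was not tested.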

How the data were processed

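Total RNA labelled with biotin was hybridised to 6 arrays. What the authors deposited is 1 linear intensity for each probe set, made with MAS5 per the submitters' processing notes (the sources used here do not give its version or settings). The mean between the 2nd and 98th percentiles was 1500 on every array. Control probe sets (64) were left out. Gene names came from the platform annotation (34958 probe sets with 1 symbol, 932 with several, 9211 with none); 34754 matched an annotation of GRCm38.p6 and 0 symbols changed. Background was read from 20 bacterial control probe sets picked by name (median signal 24.4, 95th percentile 112). Detection calls were not used.

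Signals were taken as log2 of the signal plus a pseudocount of 17.8, which is the 10th percentile over all arrays. A fold change is on that scale and so understates changes of dim genes. The upper 60% by mean (27022 probe sets) was kept. Tests were two-sided in limma 3.58.1 under R 4.3.3 (lmFit, eBayes with an intensity trend), with Benjamini-Hochberg adjustment over all kept probe sets, a threshold of 0.05 and array set as a term. One fit set emN1 against 4 controls (3 residual degrees of freedom), another had 3 groups (2), and the last added the change between sets (1). The step was tested on simulated data. Array set is the replicate number of emN1 and anN1, as the design text states, so they were paired by it; the differences between their replicates correlated with r = 0.38 across probe sets, and at -0.19 and -0.02 for pairs with wild-type. The replicates are labelled biological, with no statement on separate animals; p-values therefore reflect only the spread among these arrays, which may be technical. A gene with several kept probe sets is represented by that with the highest mean.

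The members and lists were chosen with earlier results of these data known. Named genes are all members, all measured genes of a list of 9 other hair keratins, up to 4 called of 18 regulators, and the 5 genes most like the members; others are said to be named after their values were seen. The lists are other hair keratins, regulators of hair shaft differentiation, and markers of 12 cell types. Alternatives changed the variance model, pseudocount (1 or 100), filter, scaling, set term, background and arrays. Figures were drawn with matplotlib 3.10.9.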

Additional observations from a re-analysis of the deposited data

How the results depend on the processing

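All 7 members kept the direction of their difference under every alternative run in emN1 against controls, anN1 and wild-type. What changed was how many passed. Without the intensity trend in the variance, limma called 0 of 7 in each of these and between the controls (5, 6, 7 and 6 at an unadjusted p under 0.05), as it called 0 probe sets over the whole array. In the same order 4044, 3109, 3003 and 1118 of 27022 kept probe sets had an unadjusted p under 0.05. Leaving out 1 array, the count ran from 0 (without emN1 replicate 2) to 4 against controls, with 1 without emN1 replicate 1 and 2 without anN1 replicate 1. Against anN1 it ran from 0 (without any one of the emN1 or anN1 arrays) to 5. Against wild-type it ran from 0 (without emN1 replicate 2) to 7 (without wild-type replicate 1), with 3 without emN1 replicate 1. Between the controls it ran from 0 (without any one of the emN1 or anN1 arrays) to 6 (without either wild-type array). Counts over all kept probe sets also fell without an emN1 or anN1 array. In the comparisons between single groups they rose without a wild-type array. With no replicate block, that is no array set term, 3 of 7 were called against anN1, where 42 of all kept probe sets passed. Likewise 3 were called with the replicate block by the number in the labels, where 73 of all passed. The paired fit by array set called 5, beside 545 of all. In array set 2 alone, an alternative chosen after seeing the data, emN1 and anN1 each have 1 array. Calls were lost there in each of these comparisons, in the members and over the whole array. The emN1 minus controls difference there was above 0 in all 7, from 1.04 for Krt36 to 7.29 for Krt86. With arrays centred on their median, 6 were called between the controls. Signs turned only in values that had not passed: Krt36 between the controls, at -0.0014 without the replicate block and with the block by label number; Krt35, Krt84 and Vdr between the controls when 1 array was left out (Krt35 -0.44 to 0.36, Krt84 -0.61 to 0.27 and Vdr -0.36 to 0.29, the turned value each time without anN1 replicate 2); and Krt31 in the change between sets with arrays centred on their median (-0.24). Wild-type signals of Krt33b, Krt34 and Krt86 near background limit the size of their differences from wild-type.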
